A study of Mus musculus with 11 samples.

Results

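The type II keratin gene cluster of mouse chromosome 15 was examined for regions called in Xist pulldowns. It was taken as the stretch 101150000 to 101880000 of the mm9 genome build, 730 kb that run from the Krt80 end to the Krt18 end. Its members were the called regions, here peaks, of 6 deposited lists that shared at least 1 bp with this stretch. There were 86 such peaks among 19818 in all lists. The stretch was chosen by the peak calls of these same lists, so peaks, covered length and borders inside it are given as a description and were not tested.

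The lists come from RNA antisense purification with sequencing (RAP-seq), in which probes against Xist RNA pull down the crosslinked DNA that lies near it. The cells were female mouse epiblast-like cells (EpiLCs), which arise from embryonic stem cells grown with bFGF and Activin A. They were taken on day 2 (D2, 2 libraries) and on day 4 (D4, 2 libraries). Mouse embryonic fibroblasts (MEFs) of either sex gave 1 library each. No cells received a further agent, and no source used here gives the strain, genotype or embryo age. The lists hold no RNA levels, so cell types were not checked against markers. The labels leave unstated whether the EpiLC replicates were separate cultures, and they name the replicate 1 EpiLC pulldowns as data deposited earlier. Each list belongs to 1 library, the sequencing depth is unknown, and the X chromosome was not analysed here.

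In female cells the long noncoding RNA Xist spreads over the future inactive X chromosome and brings about its silencing, and male cells normally do not express it. Keratins are the intermediate filament proteins of epithelial cells. A type II (basic) keratin pairs with a type I (acidic) keratin, and each epithelium uses characteristic pairs. The type II genes lie side by side, and Krt18 is the type I gene found at their end, next to its partner Krt8. Fibroblasts are mesenchymal cells and are not known for making the keratins of stratified epithelium or hair.

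In the RefSeq gene table (assembly GRCm38.p6), 40 genes stand between Krt80 and Krt18, both included, and 27 of them are keratin genes. All 10 keratins that the cluster was named for were found there. Krt80, a type II keratin of differentiating epithelia, comes first, followed by Krt7, a keratin of simple and glandular epithelia. After them stand Krt87 and Krt88, the hair shaft keratins Krt81, Krt86, Krt83, Krt84 and Krt82, then Krt90, and then Krt75 of the hair follicle companion layer. Krt6b and Krt6a, induced in wounded epidermis, and Krt5, the partner of Krt14 in basal cells, follow. Then come the inner root sheath genes Krt71, Krt74, Krt72 and Krt73, with Krt74 listed as a pseudogene. Krt2 and Krt1, keratins of the upper epidermal layers, precede Krt77, Krt76, Krt4, Krt79 and Krt78. Krt8 and Krt18, the pair of simple epithelia, close the row. On the Krt80 side the nearest protein-coding neighbours are Smim41, Atg101 and Nr4a1, and on the Krt18 side Eif4b, Tns2 and Spryd3. The positions in this table belong to another build than the peaks. Single peaks were therefore not assigned to genes, and only the Krt80 and Krt18 ends of the cluster are named beside them, taking the gene order to be the same on mm9. That the stretch holds the keratin genes on mm9 was taken from how it was defined and could not be checked with this table.

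Promoter sequences from RefSeq were matched for 16 of the 27 keratin genes. Those of 4 genes are shown because they span the cluster in the order of the genes, with the simple epithelial genes Krt7, Krt8 and Krt18 and the basal cell gene Krt5 between them. Each is the 250 bases before the transcription start, 5′ to 3′, with CG dinucleotides, the sites of DNA methylation, in capitals. On GRCm38.p6 they are at chr15:101412153-101412402 (plus strand), chr15:101712906-101713155 (minus strand), chr15:102004343-102004592 (minus strand) and chr15:102027966-102028215 (plus strand), positions that cannot be set against the mm9 positions of the peaks.
Krt7: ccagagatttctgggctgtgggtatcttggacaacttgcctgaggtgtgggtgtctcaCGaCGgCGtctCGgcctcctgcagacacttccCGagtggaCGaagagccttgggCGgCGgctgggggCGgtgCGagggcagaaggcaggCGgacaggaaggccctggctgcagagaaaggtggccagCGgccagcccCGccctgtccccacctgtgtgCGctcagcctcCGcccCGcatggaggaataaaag
Krt5: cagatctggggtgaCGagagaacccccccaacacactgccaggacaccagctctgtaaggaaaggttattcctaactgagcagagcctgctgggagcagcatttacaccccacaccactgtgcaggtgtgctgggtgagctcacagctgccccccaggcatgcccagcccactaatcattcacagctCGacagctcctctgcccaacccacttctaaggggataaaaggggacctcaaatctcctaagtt
Krt8: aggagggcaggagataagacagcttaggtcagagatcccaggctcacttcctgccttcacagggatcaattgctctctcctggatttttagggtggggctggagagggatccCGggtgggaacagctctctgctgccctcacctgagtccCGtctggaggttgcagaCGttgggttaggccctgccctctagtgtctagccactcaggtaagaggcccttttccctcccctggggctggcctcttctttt
Krt18: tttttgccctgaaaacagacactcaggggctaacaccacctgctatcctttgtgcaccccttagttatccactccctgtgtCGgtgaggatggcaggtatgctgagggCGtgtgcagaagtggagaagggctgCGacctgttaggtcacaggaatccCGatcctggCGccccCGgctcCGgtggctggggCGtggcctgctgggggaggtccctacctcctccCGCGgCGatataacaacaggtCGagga
Krt7 holds 16 CG dinucleotides in this stretch and Krt18 holds 12, while Krt8 holds 3 and Krt5 holds 2. The 16 keratin promoters had a median of 3.5 CG dinucleotides, against 6 over all 32851 promoters of the table. At least 12 were found in 2 of the 16 (12.5%), against 33.5% of all promoters, and the median GC content was 52.4% in both sets. The cut-off of 12 equals the Krt18 count, so it is not independent of these promoters. These counts describe the sequence and were not set against the peaks.

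Every list had at least 1 peak in the cluster. For comparison, 3170 windows of the same length were laid end to end along the autosomes, on each from the first to the last peak of any list, so the chromosome ends beyond these peaks were left out. At least 1 bp was called in 37.1% of them in D2 replicate 1 and in 35.2% in D2 replicate 2. The shares were 13.1% and 10.9% in D4 replicates 1 and 2, 6.31% for female and 9.05% for male MEFs. Because the calls chose the cluster, nothing is read from this contrast.

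At D2 the cluster was called nearly from end to end. D2 replicate 1 had 11 peaks that covered 644.7 kb, or 88.3% of the stretch, and D2 replicate 2 had 14 peaks that covered 571.8 kb, or 78.3%. The mean was 83.3% ± 7.06 (SD, n = 2). Most of this length lay in a few long peaks. In D2 replicate 1 the longest ran from 101534752 to 101848171 (313.4 kb), in the part toward the Krt18 end. The others of at least 100 kb were at 101149143 to 101290001 (140.9 kb), which starts at the Krt80 end, and at 101294201 to 101406497 (112.3 kb). In D2 replicate 2 the longest was at 101641169 to 101817953 (176.8 kb), and those at 101518449 to 101637003 (118.6 kb) and 101176259 to 101294240 (118.0 kb) followed. The cluster thus held 3 of the 75 peaks of at least 100 kb in D2 replicate 1 and 3 of the 42 in D2 replicate 2.

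The first and the last peak that touched the stretch had outer ends near each other in the D2 libraries. The first peak to reach into the cluster started at 101149143 in replicate 1 and at 101138065 in replicate 2, which is 11.1 kb apart. The last one ended at 101875943 and 101882171, which is 6.23 kb apart. The first peak of replicate 1 and the first and last of replicate 2 crossed the ends of the stretch. Of the first and last of replicate 2, only 334 and 769 bp lay inside it. The peak before the last of replicate 2 ended at 101856133. The stretch was placed on these calls, so the distances are not read as an agreement of borders. Just outside the stretch, replicate 1 had a peak at 101142006 to 101144591, 5.41 kb from the Krt80 end. Its fold enrichment was 2.72, against 2.69 for the peak just inside. A further peak of replicate 1 lay at 101129207 to 101136819.

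**Figure D1:**
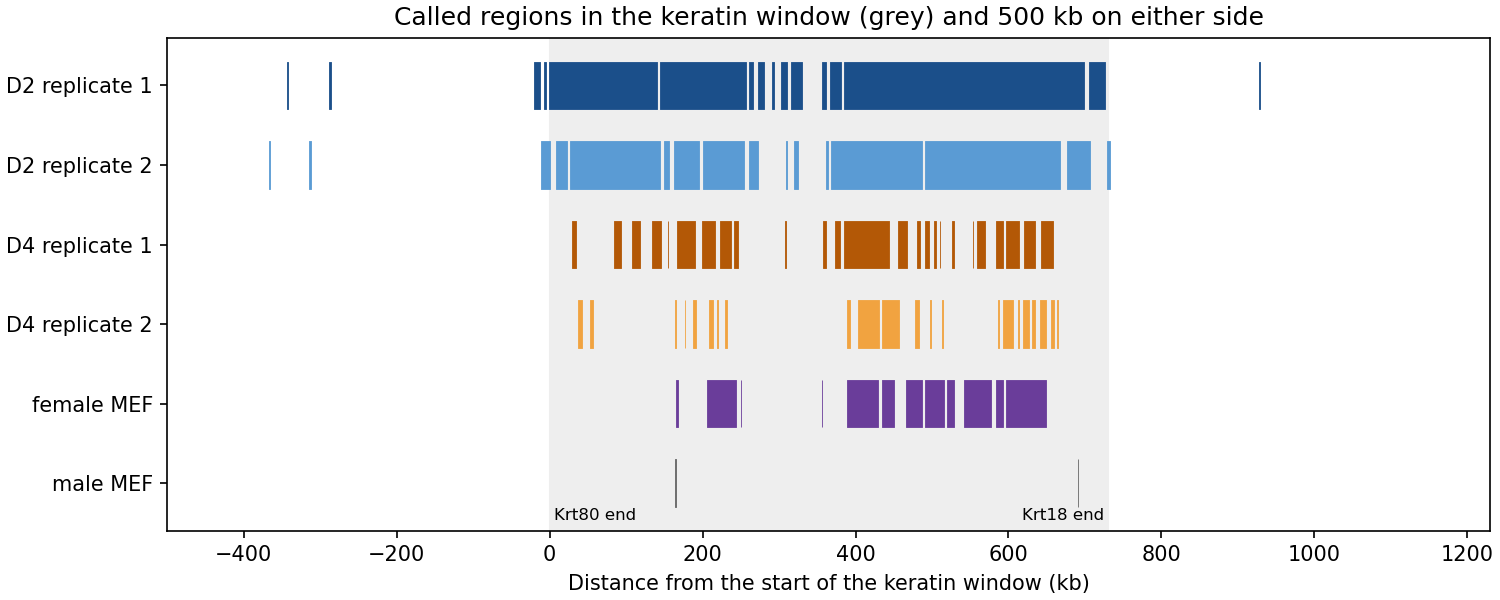
Peaks of the 6 lists in the keratin window (grey) and in the 500 kb on either side, 1 lane per list, with the distance from the start of the window in kb on the horizontal axis. Bars stand for peaks. The D2 lanes are filled almost from end to end, the D4 and female MEF lanes hold shorter peaks inside the D2 ones, and the male MEF lane holds 2 narrow peaks.

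At D4 less of the cluster was called. The called length was split into more and shorter peaks, although the order of the counts turned when the deposited −log10 q had to reach 2, with a mean of 3 at D2 and 1 at D4. D4 replicate 1 had 25 peaks over 263.4 kb (36.1%), and D4 replicate 2 had 22 peaks over 125.6 kb (17.2%). The mean was 26.6% ± 13.3 (SD, n = 2), and neither D4 library reached the lower D2 library. The D2 mean was 56.7 percentage points higher than the D4 mean and 3.13 times as large. The difference was 52.2 points between the replicate 1 libraries and 61.1 points between the replicate 2 libraries. It exceeded the spread between the libraries of each day, and no test was made because the calls chose the cluster.

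No D4 peak reached 100 kb. The longest in D4 replicate 1 was at 101535139 to 101594220 (59.1 kb), and the longest in D4 replicate 2 was at 101552541 to 101580547 (28.0 kb). Both lie in the same part of the cluster, under the long peaks of D2. The first D4 peak started at 101178657 in replicate 1 and at 101187150 in replicate 2, which is 28.7 and 37.2 kb inside the Krt80 end. The last D4 peak ended at 101808370 and 101814333.

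The lists of the days differed in length, and the difference between the days was smaller with lists of equal number. The window held 0.836% and 1.03% of all length called in D2 replicates 1 and 2, and 3.27% and 2.28% of that in D4 replicates 1 and 2. With each EpiLC list cut to its strongest 1020 peaks, the number in the female MEF list, the D2 libraries covered 44.8% and 27.6% of the cluster and the D4 libraries 25.4% and 15.6%. The D2 mean was then 15.8 points above the D4 mean, and D2 replicate 2 was only slightly above D4 replicate 1.

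Female MEFs had 12 peaks over 247.6 kb, or 33.9% of the cluster, a value between those of D4 replicate 1 and D4 replicate 2. The first started at 101314744, 164.7 kb from the Krt80 end, and the last ended at 101798951. The longest was this last one, from 101747368 (51.6 kb), followed by the peak at 101539433 to 101579570 (40.1 kb). Male MEFs had 2 peaks over 1.37 kb, or 0.188%. The 2 MEF lists also differed over all autosomes, with 1020 peaks over 13.9 Mb in female and 326 over 0.486 Mb in male MEFs. The cluster held 1.78% of the length called in female MEFs and 0.282% of that in male MEFs. The male cells served as the measure of pulldown background in fibroblasts, and there was 1 library of each sex, so the difference of 33.7 points has no replicate check. Male EpiLCs were not analysed here, so no such measure was at hand for EpiLCs. In the cluster the male MEF peaks had a deposited −log10 p of 5.12 and 5.08, and the female MEF peaks had 2.91 to 3.54. No female MEF peak there reached the male values, so the MEF shares rest on calls of unlike strictness by p. How much of the difference between the MEF lists comes from this was not tested.

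The male MEF peaks were at 101314054 to 101315231 (1.18 kb, fold enrichment 2.90) and at 101840776 to 101840969 (0.194 kb, 2.89). The first overlapped a peak of both D2 libraries, of D4 replicate 2 and of female MEFs, and the nearest peak of D4 replicate 1 was 1.01 kb away. D4 replicate 2 called almost the same site, at 101313955 to 101315469, with a fold enrichment of 2.89. The second lay under peaks of both D2 libraries and was 26.4 kb or more from any D4 or female MEF peak. Of the 247.6 kb called in female MEFs, 0.488 kb was also called in male MEFs.

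The part toward the Krt18 end carried most of the female MEF calls. In the first 365 kb of the cluster, the Krt80 side, female MEFs covered 11.2%, and in the remaining 365 kb they covered 56.7%. The same order held in each EpiLC library. D2 replicates 1 and 2 covered 81.4% and 67.3% of the Krt80 side and 95.2% and 89.3% of the Krt18 side. D4 replicate 1 covered 28.6% and 43.6%, and D4 replicate 2 covered 6.45% and 28.0%. The side nearer Krt18 was thus called more in all 5 female lists, and the ratio was smallest at D2, where little was left uncovered.

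In 10 equal parts of 73 kb each, counted from the Krt80 end, the fifth was the low point inside the D2 domain. It was covered to 40.8% and 12.6% in D2 replicates 1 and 2, to 5.82% and 0% in D4 replicates 1 and 2, and to 0.255% in the female MEF list. The ninth, at 101734001 to 101807000, was high in every female list. It was covered to 100% in both D2 libraries, to 74.1% and 51.3% in the D4 libraries and to 82.9% in female MEFs. The sixth, at 101515000 to 101588000, was similar, with 91.8% and 95.3% for the D2 libraries, 82.0% and 48.7% for the D4 libraries and 59.5% for female MEFs.

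The outermost parts were called widely at D2 and little elsewhere. The last part, which ends the cluster on the Krt18 side, was covered to 84.4% and 57.0% in the D2 libraries and to 1.88% and 4.36% in those of D4. Female MEFs covered 0% of it. The first part, at the Krt80 end, was covered to 100% and 82.8% in the D2 libraries and to 8.46% and 11.4% in those of D4. Female MEFs again covered 0%. In the second part D4 replicate 1 covered 46.1% while D4 replicate 2 and female MEFs covered 0%. The eighth part showed the other order, with 67.5% in female MEFs against 18.5% and 0.518% in the D4 libraries.

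**Figure D2:**
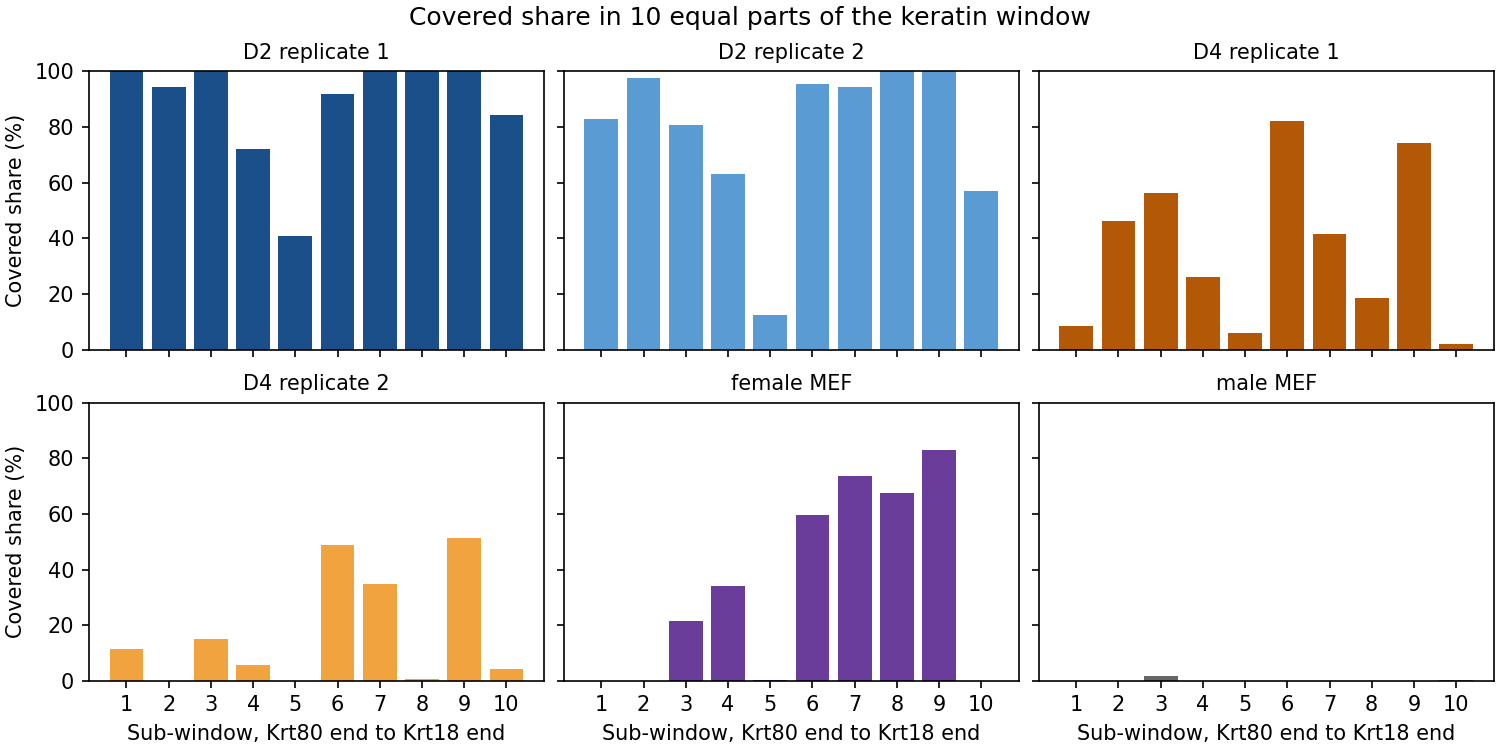
Covered share in percent of each of 10 equal parts of the keratin window, numbered from the Krt80 end to the Krt18 end, with 1 panel per list and 1 bar per part. The fifth part is low in all lists, the ninth reaches 51.3% or more in the 5 female lists, and the first and last are called mainly at D2.

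The D4 and female MEF calls lay almost wholly inside the D2 calls. Of the 301.0 kb called in at least 1 D4 library, 96.5% was called in both D2 libraries, and 0.021 kb in neither. All of the 88.0 kb called in both D4 libraries was also called in both D2 libraries. Of the female MEF length, 99.9% was called in both D2 libraries. With 75.1% of the stretch called in both D2 libraries and 91.5% in at least 1, little room was left for calls outside them. The overlaps with D2 were not computed over all autosomes, so they are not read as a trait of the cluster. Seen from D2, 52.9% of the 548.4 kb called in both libraries was called in at least 1 D4 library and 45.1% in female MEFs.

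D4 and female MEF calls met only in part. Of the female MEF length, 67.4% was called in at least 1 D4 library and 32.0% in both, beside 41.2% and 12.0% of the cluster. From the other side, 55.5% of the length in at least 1 D4 library and 90.2% of that in both was called in female MEFs. Female MEFs covered 33.9% of the cluster, and these overlaps were not computed over all autosomes. Female MEFs called 80.7 kb that neither D4 library called, and the D4 libraries called 134.0 kb that female MEFs did not. A further 177.5 kb, 24.3% of the cluster, was called in both D2 libraries and in none of the D4 and female MEF lists.

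The Jaccard index divides the length called in both libraries by that called in either. In the cluster it was 0.821 for D2 and 0.292 for D4, beside 0.395 and 0.243 over all autosomes. The index rises with the share of a stretch that both lists cover, so no order of the days is read from it. D4 replicate 2 had 70.0% of its length in common with D4 replicate 1, and D4 replicate 1, which covered more, had 33.4% in common with replicate 2.

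All 5 female lists called the same 12 segments, which together held 79.3 kb or 10.9% of the cluster. These are all of the segments that the 5 lists share on chromosome 15, and those on other autosomes were not counted. The longest was at 101552541 to 101579570 (27.0 kb), and the next ones were at 101584762 to 101594220 (9.46 kb), 101747368 to 101755510 (8.14 kb), 101791907 to 101798951 (7.05 kb) and 101770857 to 101776814 (5.96 kb). These 5 longest lie on the Krt18 side of the middle. Neither male MEF peak touched a segment, since no male peak overlapped length called in both D4 libraries.

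No female list called 61.8 kb, or 8.47% of the cluster. The longest such stretch, at 101479785 to 101505981 (26.2 kb), lay in the fifth part, and the next ones, at 101429826 to 101440710 (10.9 kb) and 101443430 to 101452130 (8.70 kb), lay close by on the side of Krt80. The DNA sequence of the stretch on mm9 was not used here, so its content of repeats or of uniquely mappable bases is not given.

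Some borders fell at nearly the same base in different libraries. Of the 24 borders of female MEF peaks in the cluster, 8 lay within 500 bp of a border in at least 1 EpiLC list. The share over all autosomes was not computed for the EpiLC lists together, so nothing is read from this count. The peak that began at 101641297 in female MEFs began at 101641227 in D4 replicate 1 and at 101641169 in D2 replicate 2. The peak before it ended at 101636806 in female MEFs and at 101637003 in D2 replicate 2, so the same short gap parted peaks in both. No list had a gap under 4057 bp between its peaks in the cluster, and this gap was near that lower limit. Whether the limit comes from the settings of the peak caller, which are unknown, was not tested. Within 500 bp lay 4 of the 24 borders (16.7%) for D4 replicate 1 and 4 for D4 replicate 2, beside 2.11% and 2.25% of the 2040 female MEF borders on all autosomes. For D2 replicates 1 and 2 it was 0 and 2 of the 24, beside 3.82% and 3.97%. Borders can match only where both lists have peaks, which lowers the shares over all autosomes. Where a list has many peaks, as in the cluster, more positions lie near a border by density alone. How many matches this gives was not tested.

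Few calls lay beyond the ends of the cluster. In the 500 kb before the Krt80 end the D2 libraries covered 2.99% and 3.31%, and in the 500 kb after the Krt18 end 0.217% and 0.434%. Over both flanks this was a mean of 1.74% ± 0.189 (SD, n = 2), against 83.3% in the cluster. D4, female MEF and male MEF lists had 0 peaks in both flanks. Part of the D2 length in the flanks belonged to the peaks that crossed the ends. Apart from those, D2 replicate 1 had 4 peaks before the cluster and 1 after it, at 102078008 to 102079090, and D2 replicate 2 had 2 before it, at 100782413 to 100783761 and 100834649 to 100837921. Toward lower positions the next peak was 13436 kb away in D4 replicate 1, 3459 kb in D4 replicate 2, 12929 kb in female MEFs and 8366 kb in male MEFs. Toward higher positions these 4 lists had no further peak on chromosome 15.

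**Figure D3:**
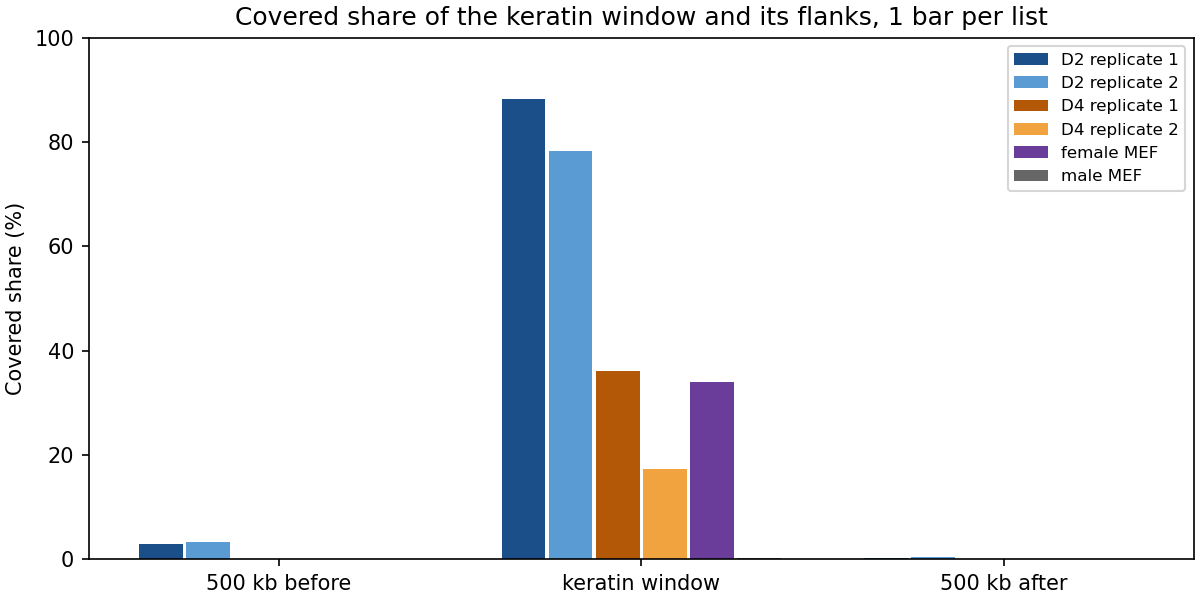
Covered share in percent of the keratin window and of the 500 kb before and after it, with 1 bar per list. The window reaches 88.3% and 78.3% in the D2 lists, while no flank exceeds 3.31% in any list.

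The fold enrichment of the called peaks was modest and alike in all lists. The deposited fold enrichment, a ratio of the peak to the background of the peak caller, ran from 2.50 to 3.18 in D2 replicate 1 and from 2.69 to 3.09 in D2 replicate 2. It ran from 2.60 to 3.06 and from 2.68 to 3.12 in D4 replicates 1 and 2, and from 2.80 to 3.18 in female MEFs. The D2 medians in the cluster were 2.74 and 2.92, beside 2.61 and 2.80 over the whole lists. Those of D4 were 2.82 in both libraries, beside 2.82 and 2.85, and that of female MEFs was 2.95, beside 2.90. Fold enrichments in the cluster were thus close to those elsewhere in the lists. Only peaks that passed the calling have such a value, so these ranges do not compare the parts of the cluster left uncalled.

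The peaks of highest fold enrichment were not the long ones. In both D2 libraries they began at nearly the same base, at 101410564 to 101416462 (3.18) in replicate 1 and at 101410483 to 101421761 (3.09) in replicate 2. In D4 replicates 1 and 2 they were at 101522865 to 101529895 (3.06) and 101781363 to 101785146 (3.12), and in female MEFs at 101399822 to 101400432 (3.18). Median peak length in the cluster was above that of the whole list in each female library. It was 13740 against 3930 bp in D2 replicate 1 and 12814.5 against 3561.5 bp in D2 replicate 2. For D4 it was 8898 against 2881 bp in replicate 1 and 3699.5 against 2763.5 bp in replicate 2, and for female MEFs 18639 against 5518 bp.

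Most of these peaks stood near the threshold of the lists. The deposited −log10 q was between 1.33 and 2.78 for the 86 peaks. At least 2 was reached by 3 peaks in each D2 library, by 1 in each D4 library and by 0 in female and male MEFs. The D2 libraries then still covered 44.8% and 27.6% of the cluster, while the D4 libraries covered 0.963% and 0.518% and both MEF lists 0%. In the cluster no peak of either MEF list reached this threshold, so it does not compare the sexes there. For the whole EpiLC lists the share of peaks that reached it was not computed, so the counts are not read as a trait of the cluster. The median −log10 q of the whole list was 1.584 and 1.538 in D2 replicates 1 and 2, beside 1.773 and 1.835 in the cluster. In D4 replicates 1 and 2 it was 1.595 and 1.493, beside 1.593 and 1.522 in the cluster. The deposited −log10 q was also not on the same scale in all lists. The male MEF peaks had a −log10 p of 5.12 and 5.08 and a −log10 q of 1.54. A peak of D2 replicate 1 with a −log10 p of 3.61 had a −log10 q of 2.03.

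**Figure D4:**
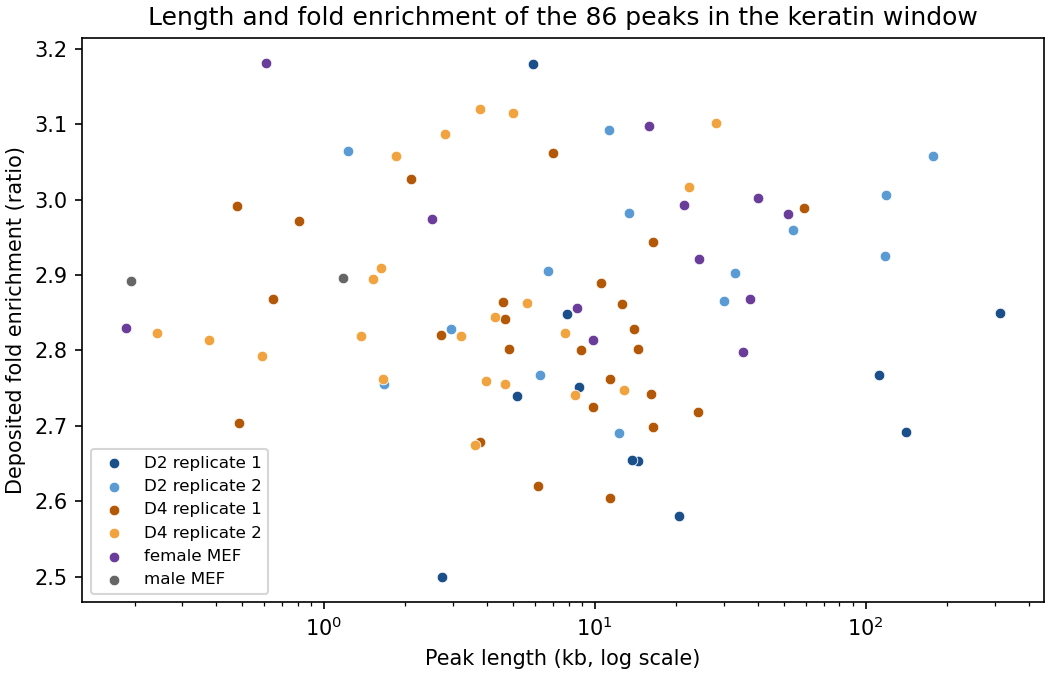
Length in kb (log scale) and deposited fold enrichment (ratio) of the 86 peaks in the keratin window, coloured by list. Fold enrichments stay between 2.50 and 3.18 at all lengths, and only the D2 lists hold peaks of 100 kb or more.

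Coverage of this extent was uncommon over the autosomes. Of the 3170 windows of the same length, those covered at least as much as the keratin cluster made up 0.126% and 0.189% in D2 replicates 1 and 2, 0.126% and 0.189% in D4 replicates 1 and 2, 0.599% for female and 4.2% for male MEFs. The cluster was placed on its calls and the windows were not, which favours the cluster, so these shares describe it and are not a test. Of the windows, 2 overlap the cluster itself.

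Among the 31 windows with a D2 mean of at least 50%, 6 had a D4 mean at or above the 26.6% of the cluster, and the median was 4.39%. In female MEFs 5 of the 31 reached the 33.9% of the cluster, while 17 had no call at all. Of the 31, 1 overlaps the cluster and so holds part of its calls, and the cluster, unlike the windows, was placed on its calls. The 31 windows lay on 13 chromosomes, with 7 of them on chromosome 9 and 2 on chromosome 15. Of the length called on chromosome 15, the cluster made up 26.2% and 27.6% in D2 replicates 1 and 2, 44.7% and 40.1% in D4 replicates 1 and 2, and 12.8% in female MEFs.

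**Figure D5:**
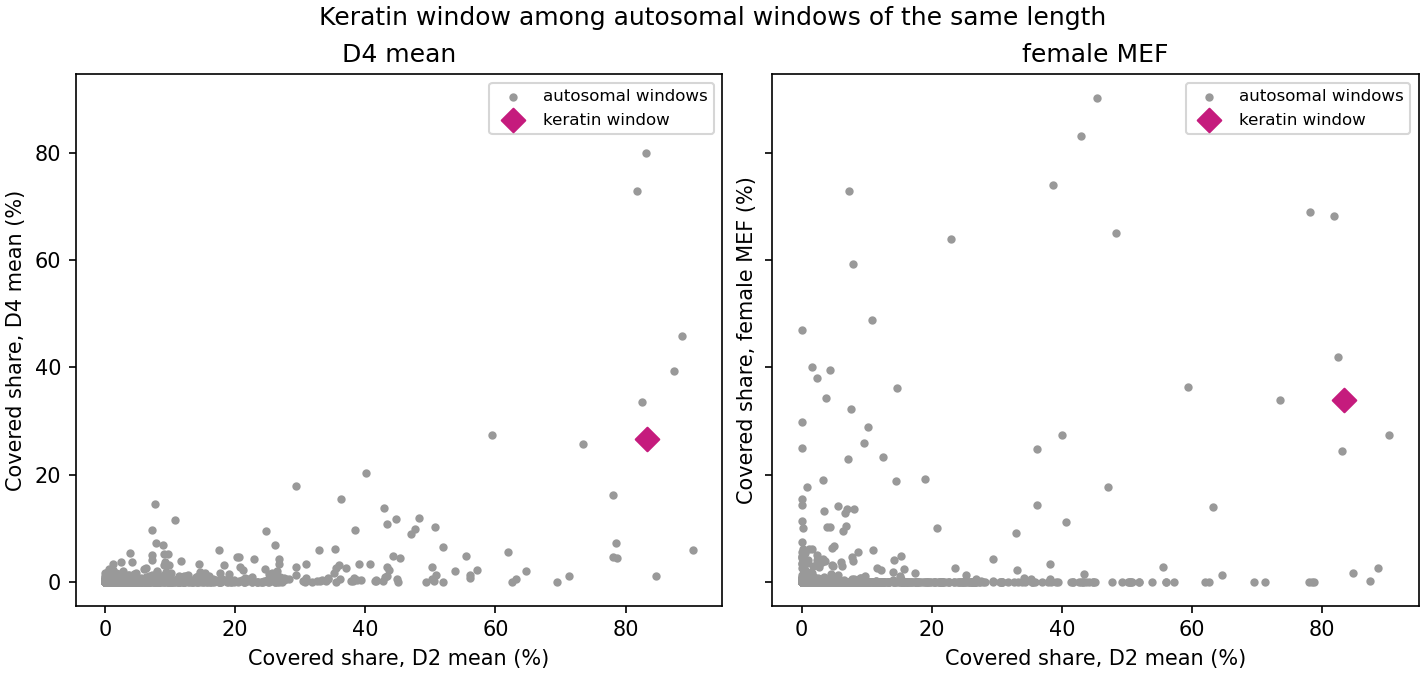
Covered share at D2 (mean of 2 lists, horizontal axis, percent) against that at D4 (mean of 2 lists, left) and in female MEFs (right), with 1 grey point for each of 3170 autosomal windows and a diamond for the keratin window. The diamond sits at 83.3% for D2, 26.6% for D4 and 33.9% for female MEFs.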

How the data were processed

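The lists of the 6 Xist pulldowns were analysed, and the 5 inputs were left aside. The genome build was mm9, per the submitters' processing notes. These notes name, with no role, MACS2 (2.2.7.1), Bowtie2 (2.2.9), bedtools (2.26.0), SAMtools (1.9), Trim Galore (0.4.1) and Picard. No source used here gives their settings or the input behind a list. The authors deposited 3 values used here for each peak, a fold enrichment as a linear ratio, a −log10 p and a −log10 q. The deposited score was left aside. Without read counts the depth stays unknown, and counting intervals were not computed. Peaks lie on 19 autosomes.

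Peaks sharing at least 1 bp with the stretch were kept, and covered length was the merged length inside it, computed with Python 3.11.15 and numpy 2.4.6 and tested on simulated intervals. Positions are counted from 1. The cluster, the gene lists and the groups of windows were chosen with earlier results of these data known. Named peaks are the longest, the strongest, the first and the last of each list, all male peaks and the 5 longest segments of all female lists; others named were chosen after their values were seen. An exact permutation test of 2 against 2 libraries could not give a p below 0.333, and none was used. Alternatives covered the peak threshold, list length, joining of peaks, window size, overlap, single replicates and the grid of windows.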

Additional observations from a re-analysis of the deposited data

How the results depend on the processing

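The covered share stayed higher at D2 than at D4 under each alternative run. The number of peaks, higher at D4 (23.5 against 12.5), turned to higher at D2 when −log10 q had to reach 2. The female MEF share, above the D4 mean with all peaks, was below it there and, like the male share, was 0%, which does not compare the sexes. With that threshold the mean number of peaks was 3 at D2 and 1 at D4, with 0 in both MEF lists, and the covered share was 36.2% at D2, 0.741% at D4 and 0% in female and male MEFs, with differences of 35.5 points between the days and 0 between the sexes and a D2 flank share of 0.0542%. With a fold enrichment of at least 3 there were 2.5, 4, 3 and 0 peaks (D2 mean, D4 mean, female MEFs, male MEFs), covering 21.5%, 4.99%, 7.76% and 0%, with differences of 16.5 points between the days and 7.76 points between the sexes and a D2 flank share of 0%. With lists cut to equal number the D2 mean was 3 peaks over 36.2%, the difference between the days 15.8 points and the D2 flank share 0.0542%. With peaks joined across gaps of up to 10 kb there were 3.5 peaks at D2, 12 at D4 and 6 in female MEFs, the D2 share was 90.5% and the D2 flank share 2.23%. With the window shortened by 50 kb at both ends 1 male peak remained. In all, 55 of 87 alternative values stayed within a set spread or within 1.5 times a count. MEFs had no replicates, so the spread for female MEFs and for the sexes was the SD of the D2 libraries. For male MEFs it was set from the male share itself. Some values could not change, such as the flank shares of lists without flank peaks, the MEF lists cut to equal number and the replicate block. The number is therefore not a measure of stability.

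Leaving out 1 EpiLC library gave differences between the days from 47.2 to 66.1 points. With the replicate block, that is, taken within replicate numbers, the difference was 56.7 points. This mean of differences always equals the difference of the means, so it adds no check. The labels do not say that the numbers pair the libraries, and no test was made. The cause of the changes with threshold was not tested. Unknown depth limits all comparisons of covered length between lists.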
